A study of Capsella grandiflora and Capsella rubella with 18 samples.

Results

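Flower buds of the self-compatible Capsella rubella were set against those of its outcrossing sister species, Capsella grandiflora. All 8 bud libraries of the series were used, 4 per species, out of 18 libraries in all. The 4 C. rubella bud columns and the 4 C. grandiflora bud columns were compared over every gene row that reached 1 FPKM in at least 4 of the 8. This left 16923 of 19350 rows. Of the rows kept 358 reached 1 FPKM in exactly 4 libraries, and of those left out 297 did so in 3. FPKM expresses fragments relative to the length of the transcript and the size of the library. Results are given by expression level, by the 16 possible pairs of a C. rubella with a C. grandiflora library, and by rank within the library.

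C. rubella sets seed by its own pollen, and C. grandiflora is self-incompatible and depends on pollinators. The shift from outcrossing to selfing is known in many plant lineages for smaller petals, less pollen and less scent, together termed the selfing syndrome. Flower buds hold the developing sepals, petals, anthers and carpels, and thus the tissues in which those traits form.

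All plants were grown in the greenhouse under standard conditions, and polyadenylated RNA was taken from mixed-stage floral buds. Cg_bud 1, Cg_bud 2 and Cg_bud 3 were C. grandiflora raised from wild seed from Monodendri, Pili and Metsovo in Greece. Cg_bud 4 (CgAxF) was an F1 plant of a cross of Corfu parents. Cr_bud 1, Cr_bud 3 and Cr_bud 4 were C. rubella from Kalavrita, Megalopoli and Samos in Greece, the Samos line inbred in the greenhouse since 2002. Cr_bud 2 was C. rubella raised from seed of San Luca in Italy. Each library thus came from another place, and the p-values measure the spread between these libraries. Whether a library holds 1 plant or a pool is not given in the sources used here. The 10 leaf libraries of C. grandiflora are used only where leaf is named.

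The bud columns summed to between 576725 and 657140 FPKM, with medians of 10.2 to 11.0. Cg_bud 1 and Cr_bud 1 were listed at 0 in only 6 and 4 rows and at exactly 0.5 in 1023 and 1137 rows. The other 6 columns were listed at 0 in 1039 to 1520 rows. Cg_bud 3 stood furthest from its own species, with a mean rank correlation of 0.935 to the other C. grandiflora buds, against 0.952 to 0.957 for those. The IDs are not paired with gene names, so the defining genes of bud tissue were not checked here. In RNA from whole buds, fewer cells of a type and less RNA per cell cannot be told apart.

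The first question was how much the buds of the species differ over the range of expression. Differences were found at every level, and most were small. Of the 16923 genes, 23.9% were called (limma, adjusted p below 0.05), 2016 higher (11.9%) and 2037 lower (12%) in C. rubella. The share called was lowest at 22.7% of the 3319 genes with a mean of 5 to 10 FPKM. It was highest at 29.2% of the 921 genes with a mean of 100 to 500 FPKM. Between these, 23.1% of 1000 genes below 2 FPKM, 23.8% of 2394 genes from 2 to 5 and 23.2% of 3699 genes from 20 to 50 FPKM were called. The share below 2 FPKM is set in part by the filter and was 12% without one. With leaf in the fit the shares ran from 20.8% below 2 FPKM down to 6.24% from 20 to 50 FPKM and up to 15.4% at 500 FPKM and above.

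The size of a called difference depended more on level. Its median was 0.92 on the log2(FPKM + 1) scale below 2 FPKM, where the median SD within species was 0.299. From 20 to 50 FPKM the median called difference was 0.575 and the SD within species 0.172. At 500 FPKM and above, among 143 genes, the median called difference was 1.02 with an SD within species of 0.227. Called genes at this level thus differed by more than those of middle level, and the spread within species was wider too.

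Size and direction were related in the called genes. Under 0.5 on the log2 scale, 610 genes were higher and 519 lower in C. rubella. From 0.5 to 1, 1000 were higher and 816 lower. From 1 to 2 the balance lay the other way, with 308 higher and 625 lower. At 2 and above, which is at least 4-fold, 98 were higher (0.579% of tested genes) and 77 lower (0.455%). Over all levels in this fit, the excess of decreases was thus found between 2-fold and 4-fold. From 0.5 to 1 it was also found below 2 FPKM (38 higher, 94 lower) and from 2 to 5 FPKM (124 and 173). From 10 to 500 FPKM that size had more increases, as from 10 to 20 FPKM (267 and 163). With upper quartile scaling 1591 genes of any size were called higher (373 at least 2-fold) and 2223 lower (773). Decreases under 2-fold then outnumbered such increases, as they did with leaf in the fit.

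The direction also shifted with level. Below 2 FPKM, 72 called genes were higher and 159 lower, so 31.2% of calls were higher in C. rubella. The share of calls that were higher was 38.8% from 2 to 5 FPKM, 45.6% from 5 to 10 and 53.4% from 10 to 20. It was 56.5% from 20 to 50, 56.6% from 50 to 100 and 57.6% from 100 to 500 FPKM. At 500 FPKM and above, 18 were higher and 23 lower. With upper quartile scaling the shares were 29.2% below 2 FPKM and 44.6% to 50.2% between 10 and 500 FPKM. With quantile normalization they were 37.4% below 2 FPKM, 49.1%, 48.4% and 48.7% in the bands between 10 and 100 FPKM, and 59.1% at 500 FPKM and above. With leaf in the fit they were 37.3%, 39.0% and 39.3% in the bands between 10 and 100 FPKM, 18.9% from 100 to 500 FPKM (17 higher and 73 lower) and 4.55% at 500 FPKM and above (1 higher and 21 lower). From 10 to 20 FPKM the share was 47.6% without Cr_bud 2 and 49.7% without Cr_bud 3. At 500 FPKM and above the share ran from 22.6% without Cr_bud 3 (tested genes held fixed) to 52.4% without Cg_bud 2. The majority of increases among calls from 10 to 100 FPKM was thus not kept under another scaling or with leaf in the fit, nor was that from 100 to 500 FPKM with leaf in the fit. The fit with leaf left every log2 difference unchanged. It took the spread among leaf libraries into the error, and so altered only which genes were called. In all 8 bands, genes called lower more often had a leaf mean below 1 FPKM, as 61.5% against 30.8% of those called higher from 2 to 5 FPKM. From 100 to 500 FPKM the medians of the leaf means were 3.38 FPKM for genes called lower and 279 for those called higher. Leaf spread need not enter both directions alike, so the fit with leaf is no check of direction in buds. How far this sets its shares was not tested. Decreases outnumbered increases in the 3 bands below 10 FPKM under each scaling run, and also with leaf in the fit. Below 2 FPKM this rests in part on genes that passed the filter through 1 species alone.

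**Figure D1:**
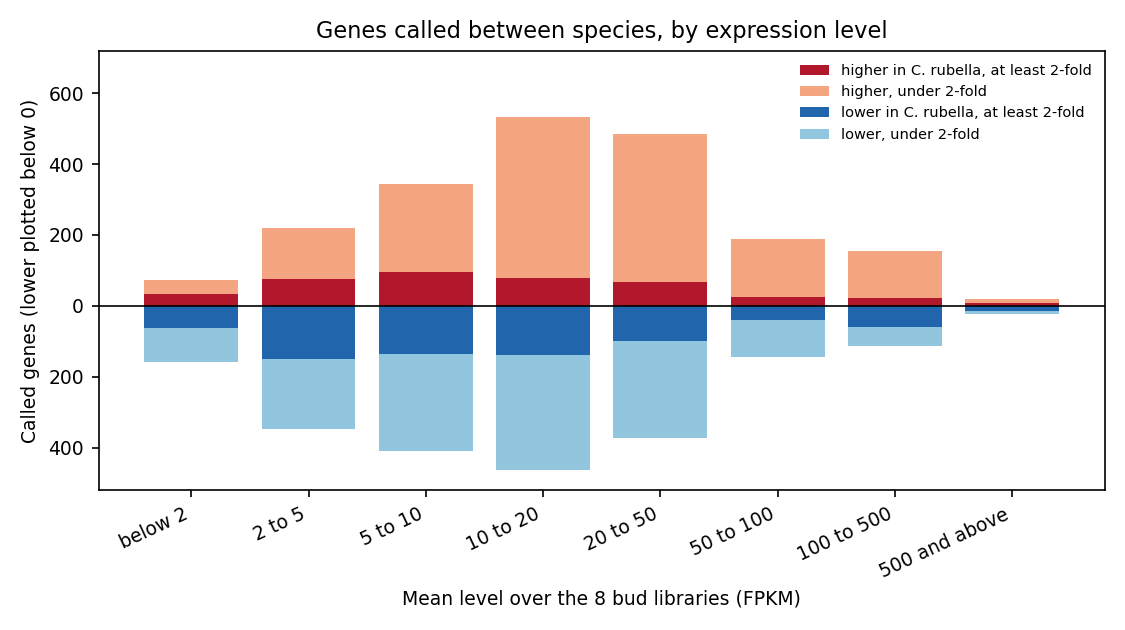
Called genes in each band of mean level (FPKM, horizontal axis), with genes higher in C. rubella above 0 and lower ones below it; dark bars are differences of at least 2-fold and light bars smaller ones. Dark bars are longer below 0 than above it in all 8 bands, as from 100 to 500 FPKM, where 21 genes were at least 2-fold higher and 59 lower; at 500 FPKM and above quantile normalization gave 12 higher and 11 lower, and a pseudocount of 5 gave 11 and 11 from 2 to 5 FPKM.

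Differences of at least 2-fold were more often decreases in C. rubella in all 8 bands, with exceptions under other settings in 4 of them (below 2, 2 to 5, 50 to 100, and 500 FPKM and above). Of the tested genes 6.55% were called with such a difference, 406 of them higher (2.4%) and 702 lower (4.15%). The gap was wide from 100 to 500 FPKM, with 21 higher and 59 lower, and narrow from 5 to 10 FPKM, with 96 higher and 136 lower. In the band from 100 to 500 FPKM the smaller called differences went the other way, with 134 higher and 55 lower. At 500 FPKM and above 8 genes were at least 2-fold higher and 15 lower, and with quantile normalization 12 were higher and 11 lower. In the other 7 bands decreases of at least 2-fold outnumbered increases under upper quartile scaling and under quantile normalization too. From 50 to 100 FPKM, 29 genes were higher and 28 lower without Cg_bud 2, and 30 and 29 without Cg_bud 4. At 500 FPKM and above 6 were higher and 6 lower without Cg_bud 1. With a pseudocount of 5, 11 were higher and 11 lower from 2 to 5 FPKM, and no called gene below 2 FPKM reached 2-fold.

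Below 2 FPKM the filter itself bears on these counts. A gene present in 1 species alone passes it through the 4 libraries of that species and had to differ. In this band 95 genes reached 1 FPKM in every C. grandiflora library and in no C. rubella library, and 42 genes did so the other way. Over all levels the counts were 118 and 64, of which 114 and 62 were called. Without a filter, 12% of genes below 2 FPKM were called and 29.4% of these were higher in C. rubella. With 1 FPKM asked in all 8 libraries, 5.16% were called. When a C. grandiflora library was left out and the filter asked for 4 of the remaining 7, genes present in the other 3 alone dropped out. The share of calls that were higher was then 51.4%, 50.5%, 47.4% and 54.3% without Cg_bud 1, 2, 3 and 4. At least 2-fold increases then outnumbered decreases, with 37 and 18, 31 and 13, 30 and 25, and 29 and 8. Without a C. rubella library the same filter gave shares of 16.6%, 16%, 18.1% and 18.3% for Cr_bud 1 to 4. With the tested genes held fixed the share was 28.6% to 35.5% whichever of the 8 libraries was left out. That fixed set keeps the genes that passed the filter through 1 species alone, so it cannot show whether the direction holds without them.

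The large decreases were mostly of genes with little transcript in leaf. From 100 to 500 FPKM, 41 of the 59 genes at least 2-fold lower in C. rubella (69.5%) had a mean below 1 FPKM over the 10 leaf libraries. Over all 921 genes of the band 11.1% had such a mean, and so did 1 of the 21 genes that were at least 2-fold higher. The median of the leaf means was 0.0657 FPKM for the 59 lower genes, 331 for the 21 higher genes and 116 for the band. From 10 to 20 FPKM the shares were 65.7% of 140 lower genes, 21.5% of 79 higher genes and 8.23% of the band. In each band below 100 FPKM the higher genes too had a larger share than the band, though a smaller one than the lower genes. Below 2 FPKM the contrast was small, at 73.0% of 63 lower genes, 66.7% of 33 higher genes and 52.3% of the band. Leaf columns are rounded and scaled unlike the bud columns, and leaf came from C. grandiflora alone.

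**Figure D2:**
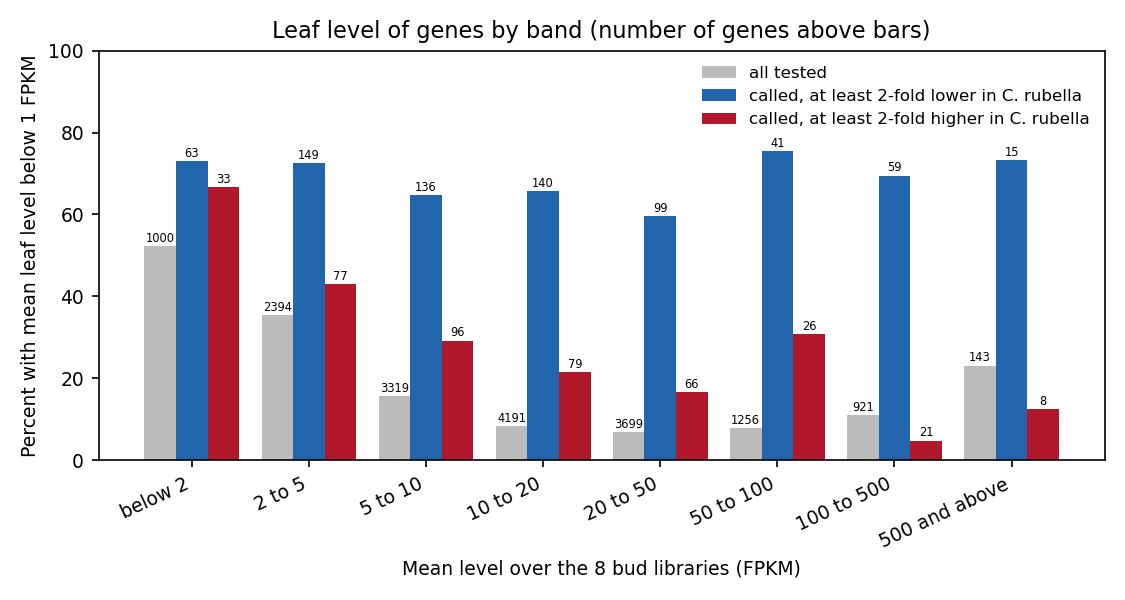
Percent of genes with a mean below 1 FPKM over the 10 C. grandiflora leaf libraries, for each band of mean bud level (FPKM); grey bars are all tested genes, blue bars genes called and at least 2-fold lower in C. rubella buds, red bars those at least 2-fold higher, and the numbers are genes. The blue bars stand between 59.6% and 75.6% in all 8 bands, above the grey bars of 6.95% to 52.3%. The red bars stand above the grey bars in each band below 100 FPKM, as 30.8% against 7.8% from 50 to 100 FPKM. They stand below them from 100 FPKM upward, as 4.76% against 11.1% from 100 to 500 FPKM.

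The second question was how well the 16 cross-species library pairs bear each other out, gene by gene. A count was made, for each gene, of the pairs in which the C. rubella library was the higher, with a tie counted in equal parts. The pairs share libraries and are not independent. In 2366 genes (14%) all 16 pairs were higher in C. rubella and in 2384 (14.1%) all 16 were lower, so that the groups did not overlap in 28.1%. With upper quartile scaling the shares were 11.3% and 15.7%. Each intermediate whole count, from 1 to 15, held between 654 and 934 genes. At 8 of 16, the point of no direction, stood 804 genes.

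**Figure D3:**
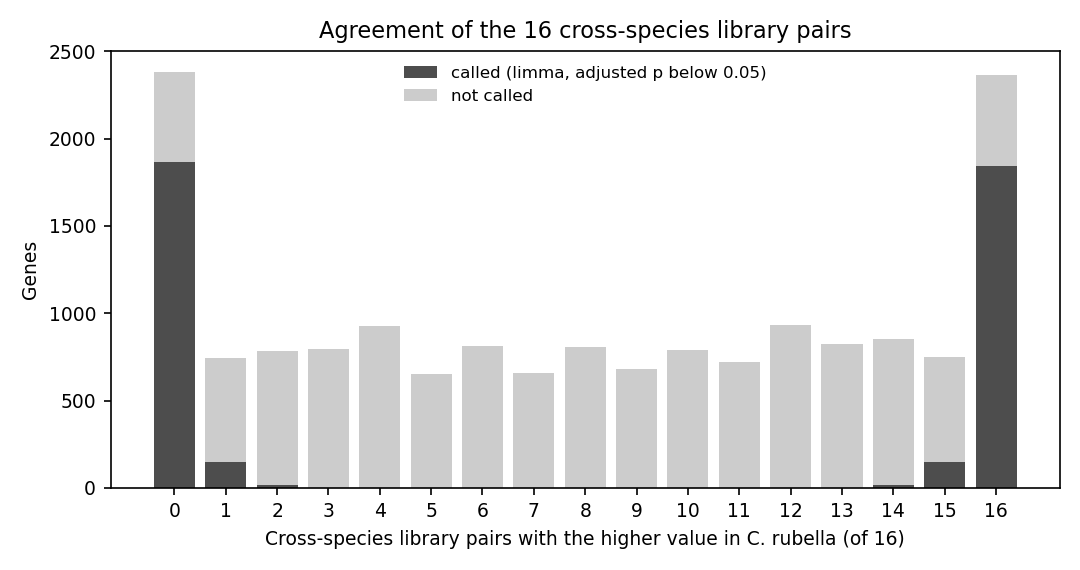
Genes (vertical axis) by the number of the 16 cross-species pairs in which the C. rubella library was higher; dark parts were called by limma, and genes with a tie that leaves an uneven count are not drawn. The end bars hold 2384 and 2366 genes, 78.4% and 77.9% of them called, and none of the bars from 3 to 12 holds a called gene.

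Most called genes had full agreement of the pairs, and most genes with full agreement were called. Of the 4053 called genes 91.5% had all 16 pairs in their direction, 342 had from 14 to under 16, and 1 had fewer. Full agreement without a call was seen in 1040 genes, with a median difference of 0.277 on the log2 scale, against 0.685 in the 3710 genes that had both. The 343 genes called without full agreement had a median difference of 0.734 and a median SD within species of 0.325, wider than the 0.193 of genes with both. At 15 of 16 pairs 20.1% of genes were called in each direction.

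A stricter count asked for the fold in each of the 16 pairs. At least 2-fold in every pair, 78 genes (0.461%) were higher and 99 (0.585%) lower in C. rubella. At least 4-fold in every pair, 27 genes (0.16%) were higher and 7 (0.0414%) lower. The pairs thus showed more decreases at the 2-fold limit and more increases at the 4-fold limit, as the means did. Both species are listed on the same Carubv gene rows, and whether reads of both map to these alike was not tested.

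The libraries did not contribute alike to the loss of agreement. Cg_bud 3 was the only library to overlap the other species in 1474 genes (8.71%), in which the other 7 libraries separated the species. For the other libraries this count lay between 595 (Cr_bud 2) and 962 (Cr_bud 1). Without Cg_bud 3, 18.3% of genes had all 12 remaining pairs higher in C. rubella and 18.2% all lower. Those shares were the highest among the runs that left out 1 C. grandiflora library, each with 12 pairs.

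Pairs of libraries from different species differed in more genes than any pair within a species. Between species 1497 to 2339 genes differed at least 2-fold in a pair (median 1984.5 of 16 pairs). Within C. grandiflora 535 to 1150 did (median 852.5 of 6 pairs) and within C. rubella 640 to 958 (median 724 of 6 pairs). The median absolute difference was 0.278 to 0.342 on the log2 scale between species. It was 0.171 to 0.246 within C. grandiflora and 0.166 to 0.199 within C. rubella. Spearman's rho across genes was 0.88 to 0.925 between species, 0.931 to 0.969 within C. grandiflora and 0.953 to 0.963 within C. rubella. These ranges did not overlap between the cross-species pairs and the 12 pairs within species. The closest cross-species pair was Cg_bud 2 with Cr_bud 3 and the one with most 2-fold differences Cg_bud 3 with Cr_bud 2.

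The excess of large decreases was not seen in every pair. In 13 of the 16 pairs more genes were at least 2-fold lower than higher in C. rubella. The 3 exceptions all involved Cg_bud 3, with 784 lower and 1155 higher against Cr_bud 1, 995 and 1344 against Cr_bud 2, and 736 and 1257 against Cr_bud 3. All 12 pairs of the other C. grandiflora libraries had more decreases, with 764 to 1571 lower and 678 to 910 higher. The pairs of Cr_bud 4 had the most decreases for each C. grandiflora library, 1202 to 1571. Cr_bud 4 was low within its own species too. It stood at least 2-fold below Cr_bud 1, 2 and 3 in 391, 632 and 638 genes, and above them in 249, 326 and 271. Within C. grandiflora, Cg_bud 3 was also the lower library in most 2-fold differences, with 743 to 882 genes at least 2-fold below each of the other 3 libraries and 228 to 268 above. When Cg_bud 3 was left out, 684 genes were called and at least 2-fold lower and 399 higher.

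**Figure D4:**
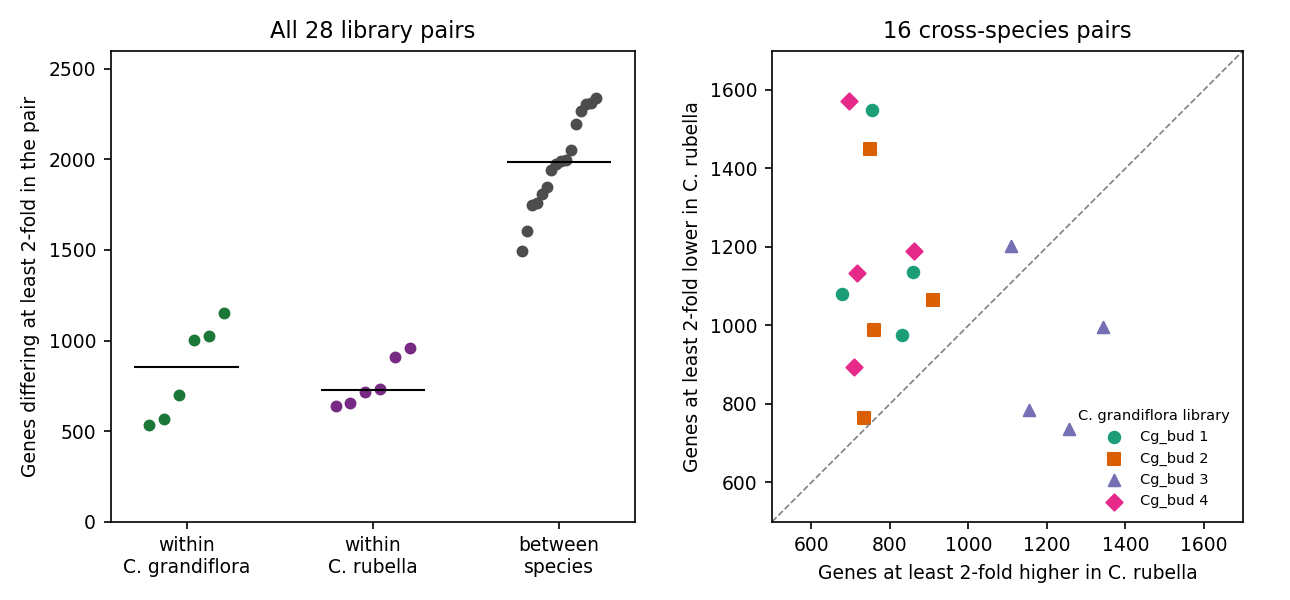
Left, the number of genes that differ at least 2-fold in each of the 28 library pairs, by kind of pair, with lines at the medians; right, genes at least 2-fold higher (horizontal) and lower (vertical) in C. rubella in the 16 cross-species pairs, with symbols for the C. grandiflora library and a dashed line at equal counts. The cross-species points lie at 1497 or more and the within-species points at 1150 or fewer, and 3 of the 4 Cg_bud 3 points lie below the dashed line.

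Within bands the exceptions were not all pairs of Cg_bud 3. Below 2 FPKM 15 of 16 pairs had more 2-fold decreases than increases, with 1 pair of Cg_bud 3 as the exception, and the median difference was below 0 in all 16. From 2 to 5 and from 5 to 10 FPKM the exceptions were the 4 pairs of Cg_bud 3. From 10 to 20 FPKM 7 of 16 pairs lacked an excess of decreases, 3 of them pairs of Cg_bud 3. From 20 to 50 FPKM 8 of 16 did, 4 of them pairs of Cg_bud 3. The other 4 in each of these bands were pairs with Cr_bud 2 or Cr_bud 3. From 50 to 100 FPKM 9 of 16 pairs lacked an excess of decreases, 4 of them pairs of Cg_bud 3 and 5 pairs of other C. grandiflora libraries with Cr_bud 2 or Cr_bud 3. From 100 to 500 FPKM 13 of 16 pairs had more 2-fold decreases, while the median difference was above 0 in 14 of 16. Of its 3 exceptions 2 were pairs of Cg_bud 3, and the other was Cr_bud 3 with Cg_bud 1, at 51 higher and 44 lower. At 500 FPKM and above 5 of 16 pairs lacked the excess, 3 of them pairs of Cg_bud 3.

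The third question was how far genes moved in rank, a measure that does not change with a scaling that keeps the order of genes. Most genes kept their place to within a few percentile points. The median absolute move between the species means was 4.09 percentile points, and 56.8% of genes moved by under 5 points. Moves of at least 10 points were made by 1740 genes upward (10.3%) and 1689 downward (9.98%) in C. rubella. The ranks of the species did not overlap in 1087 of the upward and 1185 of the downward moves, and limma had called 1134 and 1199 of them. At 20 points the counts were 453 up and 541 down, and at 50 points 33 up and 15 down. The single largest moves were 91.4 points upward and -73.6 points downward.

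Between single libraries, moves of at least 10 points were made by 21.9% to 29.5% of genes across the species. Within C. grandiflora the share was 10.2% to 18.5% and within C. rubella 10.8% to 13.3%. The ranges did not overlap between cross-species and within-species pairs.

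A change of given size moved a gene far in the middle of the range and little at its ends. Genes with an absolute log2 difference between 0.9 and 1.1, about 2-fold, moved by a median of 24.1 percentile points from 10 to 20 FPKM (111 genes). The same difference gave 7.14 points below 2 FPKM (62 genes), 2.73 points from 100 to 500 FPKM (37 genes) and 0.199 points at 500 FPKM and above (15 genes). From 10 to 20 FPKM 28.7% of genes moved by at least 10 points, while no gene did at 500 FPKM and above. Level calls stayed between 22.7% and 29.2% across these bands.

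**Figure D5:**
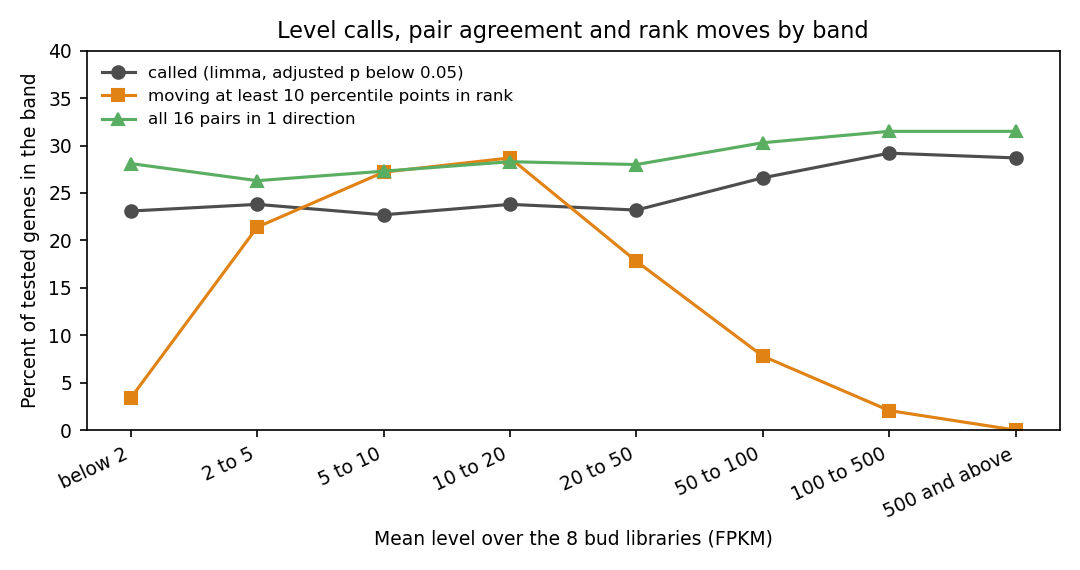
Percent of tested genes in each band of mean level (FPKM) that were called, that had all 16 pairs in 1 direction, and that moved by at least 10 percentile points in rank. Rank moves peak at 28.7% from 10 to 20 FPKM and end at 0, while calls remain between 22.7% and 29.2% and full agreement between 26.3% and 31.5%.

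Calls on levels and calls on ranks were largely of shared genes. With the values of each library replaced by normal scores of their ranks, limma called 4055 genes at an adjusted p below 0.05, and 3721 were shared with the 4053 called on log2 values (91.8% of each list). No gene called on log2 values moved in rank against its direction. A move of under 5 points was found for 566 called genes (14%). Of the 1108 genes that were called and at least 2-fold different, 172 moved by under 10 points.

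The most abundant genes were compared as lists. Among the 10 genes of highest mean level in each species 3 were shared, among the 50 highest 33, and among the 100 highest 76. Of the 500 highest 84.6% were shared, and of the 1000 highest 853 genes. A longer list shares more by its length alone, so these shares do not compare the head of the ranking with the rest. Between single libraries of different species 62 to 80 of the 100 most abundant genes were shared. This was 77 to 88 within C. grandiflora and 80 to 85 within C. rubella, so these ranges overlapped.

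Genes in the head of the ranking of 1 species alone were set beside their leaf levels. Of the 24 genes among the 100 most abundant of C. grandiflora alone, 14 were called lower in C. rubella and 15 had a leaf mean below 1 FPKM. Of the 24 among the 100 of C. rubella alone, 12 were called higher and 2 had a leaf mean below 1 FPKM. The former had a median rank of 151 in C. rubella and the latter a median rank of 156 in C. grandiflora, so that most of these genes lay a short way beyond the limit. The 100 most abundant C. grandiflora genes held 25 called decreases and 5 increases, with a median difference of -0.27. The 100 of C. rubella held 17 increases and 11 decreases, with a median of 0.04. Each list was picked by the level in 1 species, which favours these directions.

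The position and length of the gene were not used by the rule. On the 8 main scaffolds the share of calls that were higher in C. rubella ran from 47.1% (scaffold 8) to 53.2% (scaffold 2). At least 2-fold decreases outnumbered increases on 7 of them, and on scaffold 4 there were 54 increases and 51 decreases. The share called fell with the genomic span of the gene, from 29.5% of the quartile with the shortest spans (227 to 1796 bases) to 19.6% of the longest (3932 to 30790 bases). The median SD within species fell as well, from 0.293 to 0.159, and the median absolute difference from 0.405 to 0.193. The shortest quartile held 198 of the increases and 341 of the decreases of at least 2-fold, and the longest 36 and 81. In the longest quartile 327 genes were called higher and 502 lower, and in each of the other 3 quartiles more were higher. The part of this spread in the share called was not tested.

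The genes that separated the species by the widest margin in all 16 pairs were followed in each library, 2 in each direction. Their values chose them and are given as a description. Positions refer to the CR v1 JGI build, and none of the 4 rows shares its coordinates with another.

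Carubv10001442m (scaffold 6, 681486 to 683895) measured 84.99, 106.26, 73.86 and 71.53 FPKM in Cr_bud 1 to 4. It was listed at 0.5, 0, 0.23 and 0.53 FPKM in Cg_bud 1 to 4, and 0.5 is the value that the Cg_bud 1 column holds in 1023 rows. Its smallest pair difference was 5.57 on the log2 scale, and its percentile rank rose from 0.78 to 92.1, the largest move among the tested genes. The difference of the means was 6.02, a value that depends on the pseudocount and was 4.05 with 5 added. With values of 0.5 FPKM set to 0 it was 6.17. Leaf libraries of C. grandiflora held up to 26.3 FPKM, with a median of 1.55 and a listing at 0 in 4 of 10.

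Carubv10017607m (scaffold 5, 10716434 to 10718075) measured 40.52, 44.15, 43.99 and 52.58 FPKM in Cr_bud 1 to 4. In Cg_bud 1 to 4 it was listed at 0.5, 0.34, 0.63 and 0.44 FPKM, and 0.5 is the value that the Cg_bud 1 column holds in 1023 rows. All C. rubella libraries were high and close to each other, at 45.3 ± 5.13 FPKM, against 0.478 ± 0.121 in C. grandiflora (SD, n = 4 each). The difference was 4.97 (SE 0.11, limma adjusted p = 1.96e-07), and the smallest pair difference 4.67. The former was 3.19 with a pseudocount of 5 and 5.55 with 0.5. With values of 0.5 FPKM set to 0 it was 5.11 (limma adjusted p = 1.37e-06). In leaf it was listed at 0 in 9 of 10 libraries and measured 22.1 FPKM in the other.

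Carubv10027363m (scaffold 8, 9215557 to 9216373) measured 16.76, 32.96, 14.56 and 13.68 FPKM in Cg_bud 1 to 4. It was listed at 0 in Cr_bud 2, 3 and 4 and at 0.5 in Cr_bud 1, the column that holds 0.5 in 1137 rows. The C. grandiflora libraries were all above the C. rubella ones, with Cg_bud 2 the highest. On the log2(FPKM + 1) scale the difference was -4.12 (SE 0.279, limma adjusted p = 0.000171), a value that depends on the pseudocount and was -2.20 with 5 added. In leaf the gene ranged from 0 to 11.8 FPKM with a median of 4.

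Carubv10011562m (scaffold 1, 228166 to 229301) measured 79.48, 125.23, 73.33 and 51.07 FPKM in Cg_bud 1 to 4. In Cr_bud 1 to 4 it measured 8.29, 0, 8.07 and 4.67 FPKM. The groups did not overlap, and Cr_bud 2 was the lowest. C. grandiflora averaged 82.3 ± 31.1 FPKM and C. rubella 5.26 ± 3.88 FPKM (SD, n = 4 each). The difference was -4.08 (SE 0.679, limma adjusted p = 0.00554), and -3.34 without Cr_bud 2. Its percentile rank fell from 91.3 to 22.2, and its leaf median was 0.0697 FPKM.

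The counts above depend on the fit and on single libraries. Without Cr_bud 2, 1249 genes were called higher in C. rubella, and without Cg_bud 4, 1281 were called lower. A fit that also held the 10 leaf libraries called 1545 genes, of which 30.6% were higher in C. rubella, and it kept 33.4% of the 4053 calls. Without both Cg_bud 1 and Cr_bud 1, 2343 genes were called.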

How the data were processed

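The authors deposited gene expression as FPKM, fragments scaled to transcript length and library size, in 1 table, per the file headers. Bowtie, TopHat and Cufflinks are named in the submitters' processing notes. No version, parameter, column scaling or counting rule is given in the sources used here. The depth behind each FPKM value is unknown, so no counting interval is given. Columns were matched to libraries by name.

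Values were analysed as log2(FPKM + 1), a scale on which changes at low levels appear smaller. Testing required at least 1 FPKM in at least 4 of the 8 bud libraries. The species difference was fitted with limma 3.58.1 under R 4.3.3 (empirical Bayes, mean trend), with Benjamini-Hochberg adjustment over all tested genes. The script was also tested on simulated data. Called means an adjusted p below 0.05. Each called difference of at least 1 on the log2 scale is termed at least 2-fold. Level bands use the mean FPKM over all 8 bud libraries. A percentile rank is the position of a gene among the tested genes of 1 library. The named genes are the 2 per direction with the largest smallest-pair log2 difference over the 16 cross-species pairs, among genes that average 5 FPKM or more in the higher species. The members, bands and tests were chosen with earlier results of these data known. Alternatives covered the pseudocount, filter, scaling, trend, library weights, a fit with leaf, rows that share coordinates and each library in turn. Planned gene lists could not be used, since IDs and names are not paired in the table.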

Additional observations from a re-analysis of the deposited data

Results flagged for a closer look

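In 24 sets of 4 libraries the highest and lowest values were compared with the rest of their set, and 4 stood apart. The rate taken for chance was about 1 in 20 sets. It is no measure here, since those found are counts of rows at 0 and values of a gene picked for its values. They are given as a description. In Cg_bud 1 the value 0 occurred in 6 rows, and in each other C. grandiflora bud library in at least 1039. In Cr_bud 1 it occurred in 4 rows, and in each other C. rubella bud library in at least 1321. For Carubv10027363m, Cg_bud 2 stood at 33.0 FPKM, above 16.76 or less in the other C. grandiflora buds. For the same gene Cr_bud 1 stood at 0.5 FPKM while the other C. rubella buds were listed at 0, in the column that holds 0.5 in 1137 rows.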

How the results depend on the processing

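The 4 named genes kept their direction and stayed below an adjusted p of 0.05 (limma) in all 100 alternative values that could be had, since a stricter filter drops some of them. They were picked for the widest margin in these same libraries, which favours this outcome. Of 551 alternative values of the counts and shares, 495 stayed within 1.5 times the value as reported. With a pseudocount of 5, 206 genes were called and at least 2-fold higher and 319 lower. Without a filter 12% of genes below 2 FPKM were called, and with the filter asked in all 8 libraries 5.16%, with 266 genes at least 2-fold higher. The filter at 5 FPKM left no band below 2 FPKM. With leaf in the fit (18 libraries) 1545 genes were called, of which 473 were higher and 1072 lower, and 13.7%, 8.77%, 6.85%, 6.24%, 7.09%, 9.77% and 15.4% in the 7 bands from 2 to 5 FPKM upward. It kept 1355 of the 4053 calls of the fit of bud libraries alone (33.4%), which made up 87.7% of its own. Without Cg_bud 1 and Cr_bud 1, the columns with few rows at 0 and many at 0.5 (3 against 3), 2343 genes were called, 1223 higher and 1120 lower. The shares called were 12.8%, 13.2%, 13%, 14.1%, 16%, 16.8% and 12.4% in the same bands. Whether 0.5 stands for 0 in these columns is not given in the sources used here. Moves of 5 percentile points numbered 3699 up and 3610 down, and moves of 20 points 453 and 541. The fit with leaf left the log2 differences unchanged and altered only their error, which took in the spread among leaf libraries. Genes called lower more often had little transcript in leaf, so the balance of directions in that fit is no check of direction in buds. A comparison of 3 against 3 has fewer libraries, and the move limit sets its own count. Beyond this the cause of these shifts was not tested.

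Leaving out each library in turn gave 2720 to 4074 called genes, 1249 to 2045 higher and 1281 to 2029 lower, with 277 to 404 at least 2-fold higher and 510 to 767 lower. The shares called were 10.9% to 22.1% below 2 FPKM, 15.7% to 22.6% from 2 to 5, 15.6% to 21.6% from 5 to 10 and 15.8% to 23.6% from 10 to 20 FPKM. They were 15.9% to 24.1% from 20 to 50, 16.8% to 28.7% from 50 to 100, 19.3% to 33.4% from 100 to 500 and 14.7% to 32.0% at 500 FPKM and above. At 500 FPKM and above the share fell by over 1.5 times without Cg_bud 1, 2 or 4 or Cr_bud 1, 2 or 4. These ranges include runs, chosen after the data were seen, that kept the genes tested with 8 libraries, since a filter in 4 of 7 removes genes present in the remaining 3 alone. No paired analysis was possible because the labels give the libraries no shared replicate numbers.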
